A study of Mus musculus with 10 samples.

Results

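The 51 genes described here are the mouse matrix metalloproteinases (Mmp, 23 genes), the Adamts proteases (19), the protease-like Adamtsl proteins (5) and the tissue inhibitors of metalloproteinases (Timp, 4). They were chosen by symbol alone, as every gene of the deposited table named Mmp, Adamts, Adamtsl or Timp followed by a number, and make up 51 of 53801 genes. Mouse embryonic fibroblasts (MEFs) are connective tissue cells grown out of embryos, here of strain C57BL/6 (C57BL/6J in the methods of the study) at embryonic day 13.5, and RNA was sequenced from 3 MIDEAS-/- lines, 3 MIDEAS+/+ lines, 2 DNTTIP1-/- lines and 2 DNTTIP1+/+ lines. MIDEAS (gene Elmsan1) and DNTTIP1 are subunits of MiDAC, a histone deacetylase complex built on HDAC1, and each knockout carries a small homozygous deletion in exon 2 of its gene. Cultures were started from the body of the embryo without head, liver and heart, no agent was applied, and MIDEAS-/- and DNTTIP1-/- lines were each compared with the wild-type lines that carry the same gene in their label. The study describes the lines of a group as independent, whereas the labels give them only a replicate number. The values are normalized counts, that is, the reads of each gene scaled by a factor for the depth of the library.

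Mmp enzymes are secreted or membrane-bound zinc proteases that cut collagens, other matrix proteins and each other's inactive precursors. Adamts enzymes share the zinc site but carry thrombospondin repeats that hold them in the matrix, where some cut large proteoglycans and others trim procollagen, whereas Adamtsl proteins have the repeats without the protease. Timp proteins bind the active sites of both families, and fibroblasts are a main source of many of these proteins in connective tissue.

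In MIDEAS-/- MEFs 8 Adamts genes and Adamtsl1 rose and Mmp10 fell, while the abundant matrix enzymes of fibroblasts (Mmp2, Mmp14, Adamts1 and Adamts5) and the 4 Timp genes did not pass the test. The promoters of the Mmp genes beside Mmp10 and of the Adamts genes that rose differ in sequence, and 6 are printed to show this. In each, the capitals mark TGANTCA, the sequence bound by AP-1 factors, TATAAA, the TATA box, and AACCACA, the sequence bound by Runx factors, each searched on both strands. Each run is the 120 bases before a RefSeq transcript start on build GRCm38.p6 (the mm10 build of the deposited counts), 5′ to 3′ on the strand of the gene: Mmp10 at chr9:7502222-7502341 (plus strand), Mmp3 at chr9:7445702-7445821 (plus), Mmp13 at chr9:7272394-7272513 (plus), Adamts17 at chr7:66839615-66839734 (plus), Adamts9 at chr6:92943535-92943654 (minus) and Adamts3 at chr5:89883335-89883454 (minus).
Mmp10: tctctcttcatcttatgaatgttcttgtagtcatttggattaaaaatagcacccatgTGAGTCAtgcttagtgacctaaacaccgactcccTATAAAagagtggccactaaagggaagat
Mmp3: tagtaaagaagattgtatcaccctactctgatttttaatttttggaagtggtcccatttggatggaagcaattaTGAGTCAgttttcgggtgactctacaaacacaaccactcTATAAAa
Mmp13: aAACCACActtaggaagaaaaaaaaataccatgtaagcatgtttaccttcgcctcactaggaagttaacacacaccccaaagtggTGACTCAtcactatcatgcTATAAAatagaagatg
Adamts17: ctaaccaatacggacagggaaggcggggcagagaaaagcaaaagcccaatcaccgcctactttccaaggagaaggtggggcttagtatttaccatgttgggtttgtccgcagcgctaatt
Adamts9: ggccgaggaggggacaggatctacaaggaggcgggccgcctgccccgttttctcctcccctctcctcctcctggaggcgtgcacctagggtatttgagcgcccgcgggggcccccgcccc
Adamts3: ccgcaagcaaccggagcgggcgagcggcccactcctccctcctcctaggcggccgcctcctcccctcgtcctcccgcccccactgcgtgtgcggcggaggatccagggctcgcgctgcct
The windows of Mmp10, Mmp3 and Mmp13 hold an AP-1 match 63, 46 and 35 bases before the start and a TATA box 29, 7 and 16 bases before it. The windows of the 3 Adamts genes, the only ones that rose with a window in this search, hold no match to any of these motifs. The other genes that rose were not searched, so their promoters are not described. Over 250 bases before the start, 36 of the 51 genes had a window in this search (the one nearest to the 5′ end of the gene was used). An AP-1 match stood in 7 of the 10 genes of the Mmp cluster on chromosome 9. It stood in 0 of 10 Adamts genes and in 6.75% of the 32851 windows searched, which need not cover every gene. TATAAA stood in 7 of the 10 cluster genes, in 1 of 10 Adamts genes and in 12.4% of all windows, and AACCACA in 2, 0 and 4.40%. The median GC content was 40.2% in the cluster windows and 68.4% in the Adamts windows. It was 52% over all gene symbols with a window, each taken with its first listed window. A match describes the letters of a window, and binding was not measured.

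The libraries held 12339970 to 19761295 recovered reads, of which 0.27% to 0.378% fell on the 51 genes. MIDEAS-/- replicate 1 stood apart from the other MIDEAS-/- lines (a chi-square per gene of 51.9 and 61.7, against 18.2 to 25.2 in the other groups and 19.3 between replicates 2 and 3), and MIDEAS-/- replicate 2 and MIDEAS+/+ replicate 3 were the deepest libraries. Dnttip1 had 197 and 173 normalized counts in DNTTIP1-/- lines, against 434 and 443 in DNTTIP1+/+ lines. Elmsan1 had 1038, 1728 and 1590.4 in MIDEAS-/- lines, against 1272, 1332 and 1576 in MIDEAS+/+ lines. These overlap, so the Elmsan1 count does not check the MIDEAS labels. All 10 fibroblast markers examined were detected, and their summed level was 40830 to 50785 in MIDEAS-/- and 41648 to 50515 in MIDEAS+/+ lines.

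Of the 51 genes, 41 had a mean of at least 10 normalized counts and were tested (14 Mmp, 18 Adamts, 5 Adamtsl and 4 Timp). The other 10 were Mmp1a, Mmp1b, Mmp7, Mmp8, Mmp20, Mmp21, Mmp24, Mmp25, Mmp27 and Adamts13. Mmp7, a matrilysin of epithelia, and Mmp20, an enzyme of tooth enamel, were at 0 in every library. Mmp25, a membrane-anchored enzyme of leukocytes, averaged 7.73 normalized counts and the remaining ones 1.34 or less.

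Levels can be compared between genes only per length of exon, and on this scale 5 genes led over the 10 libraries. These were Timp2 with 1349, Timp1 with 1256 and Mmp2 with 1147 normalized counts per kb of exon, followed by Adamts1 with 782 and Mmp14 with 674. Mmp2, a gelatinase, is made as an inactive precursor that the membrane enzyme Mmp14 cuts on a surface complex with Timp2, so this activating set was among the most abundant products of the family here. The levels of the 41 tested genes ran down to 1.25 per kb for Adamts19. Of these, 21 lay above 100 per kb, but only 2 of the 9 genes that rose in MIDEAS-/- MEFs did, Adamts7 and Adamtsl1.

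**Figure D1:**
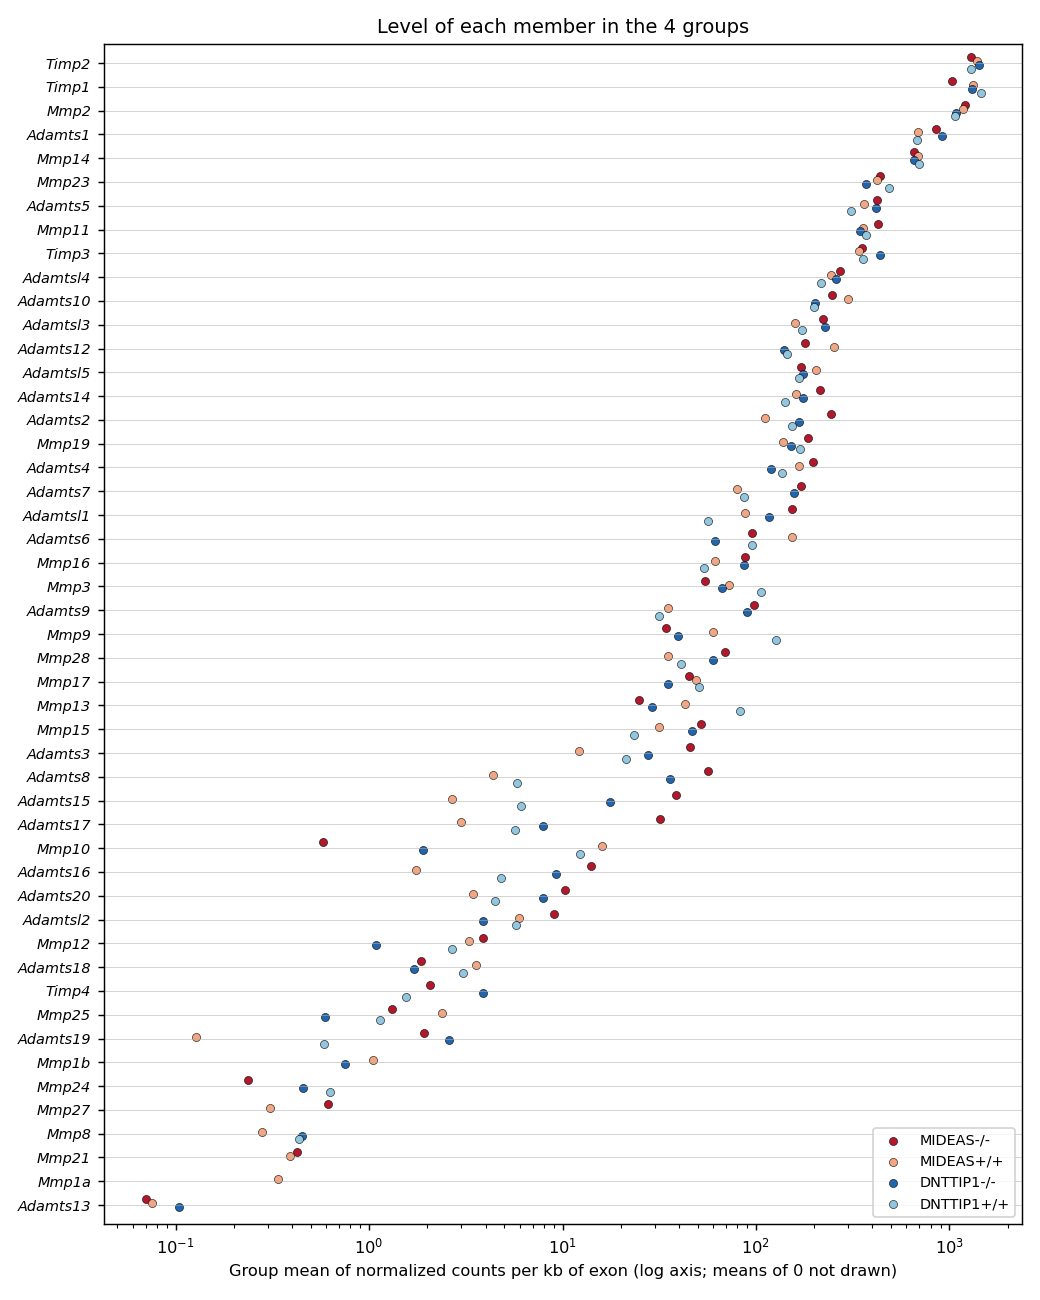
Mean level of each gene in the 4 groups, as normalized counts per kb of exon on a log axis, with genes ordered by their mean over the 10 libraries and one point per group. Timp2, Timp1 and Mmp2 lie at the top, where the groups lie close together, and Adamts8, Adamts15, Adamts16, Adamts17 and Adamts19 lie low and show MIDEAS-/- to the right of MIDEAS+/+.

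The first comparison asks which of these genes changed with the loss of MIDEAS. With limma, 9 of the 41 tested genes were higher (22.0%) and 1 was lower in MIDEAS-/- than in MIDEAS+/+ MEFs at an adjusted p under 0.1. Among all 16227 genes tested 5.65% were called, 3.36% as higher and 2.29% as lower. On the recovered reads edgeR called 10 members (5.28% of all genes) and DESeq2 15 (10.3% of all genes). Of the 18 tested Adamts genes 8 rose (44.4%), with a median log2 fold change of 1.16, against -0.024 over all genes tested. Of the 5 Adamtsl genes 1 rose (median 0.50). Of 14 Mmp genes 0 rose and 1 fell (median 0.018), and 0 of 4 Timp genes were called (median -0.033). By unadjusted p under 0.05, the counts were 1 higher and 1 lower for Mmp and the same for Timp, and for all tested members 13 higher and 3 lower, against 8.82% and 7.83% of all genes. The libraries of the 2 genotypes did not overlap in 14 members as higher, against 11.5% of all genes, and in 2 as lower, against 11.0%. The summed Adamts counts were 20370 to 24133 in MIDEAS-/- lines, against 16186 to 19755 in MIDEAS+/+ lines, whereas the Mmp sums of 11008 to 14570 and 11206 to 13501 overlapped.

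**Figure D2:**
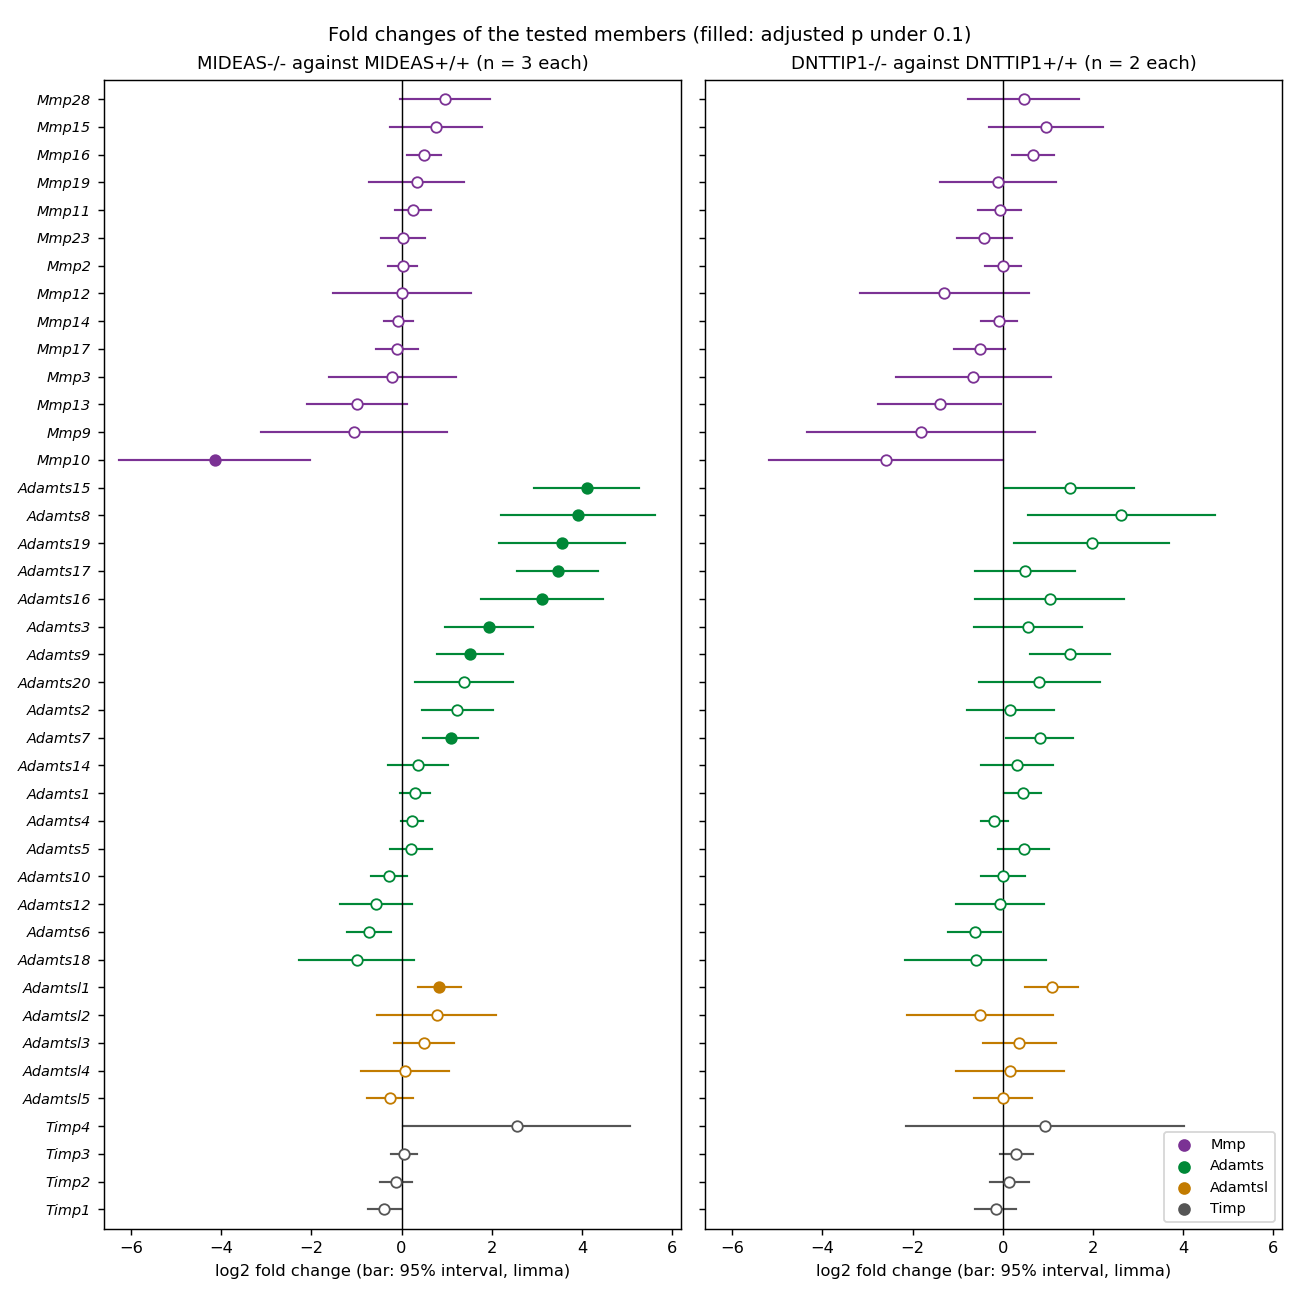
Log2 fold change of each of the 41 tested genes with its 95% interval from limma, for MIDEAS-/- against MIDEAS+/+ (left) and DNTTIP1-/- against DNTTIP1+/+ (right), with filled points for an adjusted p under 0.1. The filled points of the left panel are 8 Adamts genes and Adamtsl1 above 0 and Mmp10 below it, and the right panel has none.

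The largest rises among the proteoglycan-cutting enzymes were those of Adamts15 and Adamts8. These are neighbours on chromosome 9, with Adamts15 at 30899155 to 30922452 (minus strand) and Adamts8 at 30942562 to 30963838 (plus strand), 20.1 kb apart with 0 protein-coding genes between them. Adamts15, which cuts versican and aggrecan, had 474, 334 and 386 normalized counts in the MIDEAS-/- lines, against 24.5, 8.18 and 50.8 in the MIDEAS+/+ lines. Adamts8, an enzyme first known for blocking vessel growth, had 148, 301 and 335 in the MIDEAS-/- lines, against 17.8, 5.11 and 37.6 in the MIDEAS+/+ lines. Every knockout line lay above every wild-type line for both genes, and MIDEAS+/+ replicate 2 was lowest. The log2 fold changes were 4.10 (SE 0.52, limma adjusted p = 0.00737) for Adamts15 and 3.91 (SE 0.76, limma adjusted p = 0.0289) for Adamts8. Exons of Adamts8 share 489 bp with the antisense gene Gm29724, and no strand setting is stated for the counting, so reads of the overlap cannot be assigned. The call for Adamts8 was lost without MIDEAS-/- replicate 2 or 3 (limma adjusted p up to 0.107), and that for Adamts15 held with every library left out.

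Adamts9, a versican-cutting enzyme related to worm GON-1, had 977, 1926 and 1497 normalized counts in MIDEAS-/- lines, against 357, 401 and 829 in MIDEAS+/+ lines. The groups did not overlap, but MIDEAS-/- replicate 1 and MIDEAS+/+ replicate 3 came close. Its log2 fold change was 1.52 (SE 0.33, limma adjusted p = 0.0402). Leaving out MIDEAS-/- replicate 2 or 3, or replicate 1 or 2 of the wild type, ended the call (limma adjusted p up to 0.170). Exons of Adamts9 share 1381 bp with A730049H05Rik and 424 bp with Gm15737 on the other strand.

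The other proteoglycan-cutting enzymes did not pass the test. Adamts20, known from the belted coat colour mutant, had 34.1, 118 and 128 normalized counts in MIDEAS-/- lines, against 27.9, 22.5 and 43.0 in MIDEAS+/+ lines, a log2 fold change of 1.39 (SE 0.49, limma adjusted p = 0.176). Here MIDEAS-/- replicate 1 fell among the wild-type lines. Adamts4 had 856, 978 and 995, against 825, 752 and 823, a narrow but complete separation (log2 fold change 0.24, SE 0.11, limma adjusted p = 0.307). Adamts1, the most abundant protease of this class, had 5359, 4186 and 4009 in MIDEAS-/- lines, against 3446, 3653 and 3829 in MIDEAS+/+ lines (log2 fold change 0.30, SE 0.15, limma adjusted p = 0.361). Adamts5, its neighbour 53.1 kb away on chromosome 16, had an overlapping distribution. All 7 genes of this class (Adamts1, 4, 5, 8, 9, 15 and 20) had a log2 fold change above 0. Of these 3 were called, and the median was 1.39. Their summed counts were 10888 to 13201 in MIDEAS-/- lines, against 7870 to 9827 in MIDEAS+/+ lines. Most of these counts came from Adamts1 and Adamts5, neither called, with 7547 to 10712 and 6619 to 8044.

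Adamts16, Adamts17 and Adamts19 rose from low wild-type levels. Adamts17, whose human gene is mutated in a form of Weill-Marchesani syndrome, had 218, 306 and 222 normalized counts in MIDEAS-/- lines, against 23.4, 12.3 and 33.6 in MIDEAS+/+ lines. It had the smallest p of the family, with a log2 fold change of 3.46 (SE 0.41, limma adjusted p = 0.00581), and the lowest knockout line stood far above the highest wild-type line. Adamts16, an enzyme that can cut fibronectin, had 139, 68.5 and 79.1 in MIDEAS-/- lines, against 15.6, 3.07 and 17.2 in MIDEAS+/+ lines, a log2 fold change of 3.10 (SE 0.61, limma adjusted p = 0.0289). Adamts19, a gene linked to heart valve disease in humans, had 24.8, 25.3 and 30.7, against 2.23, 0 and 3.13, a log2 fold change of 3.55 (SE 0.63, limma adjusted p = 0.0220). In both genes the genotypes were fully apart.

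The Adamts19 values rest on few molecules, 93 reads in the MIDEAS-/- lines and 6 in the MIDEAS+/+ lines. Even read numbers were over-represented in every library (54.9% to 66.0% of genes with 1 to 10 reads). Counting both mates of a read pair would leave such a pattern, but this was not tested. On that assumption, the number of sequenced fragments was taken as reads divided by 2 and rounded up per library. This gives 47 and 3 fragments and a ratio of 14.2 with an exact 95% interval of 4.57 to 71.3, which covers counting error only. The calls of Adamts16, Adamts17 and Adamts19 held with each of the 10 libraries left out (limma adjusted p up to 0.0837, 0.0363 and 0.0771). Adamts18, the fourth gene of this group, had 14.5, 32.6 and 9.89 normalized counts in MIDEAS-/- lines, against 51.3, 34.7 and 22.7 in MIDEAS+/+ lines (log2 fold change -0.99, SE 0.57, limma adjusted p = 0.440), with overlapping groups. The median over the 4 genes was 3.28.

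Among the procollagen N-proteinases, which trim fibrillar procollagens, 1 of 3 rose. Adamts3, which also processes the lymphatic growth factor VEGF-C, had 219.9, 289 and 236 normalized counts in MIDEAS-/- lines, against 76.9, 41.9 and 79.8 in MIDEAS+/+ lines. The groups lay far apart, and the log2 fold change was 1.94 (SE 0.44, limma adjusted p = 0.0493). Leaving out MIDEAS-/- replicate 2 or 3, or wild-type replicate 2, ended its call (limma adjusted p up to 0.194). Adamts2, the most abundant of the 3 by count, had 2684, 2161 and 1978, against 1342, 502 and 1292, and missed the threshold by a narrow margin (log2 fold change 1.24, SE 0.35, limma adjusted p = 0.1001) although every knockout line was above every wild-type line. MIDEAS+/+ replicate 2 was again the lowest library. Adamts14 overlapped between the genotypes (log2 fold change 0.36, SE 0.29, limma adjusted p = 0.606).

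Adamts7, which cuts cartilage oligomeric matrix protein and thrombospondin, had 768, 1223 and 1234 normalized counts in MIDEAS-/- lines, against 442, 446 and 609 in MIDEAS+/+ lines, a log2 fold change of 1.09 (SE 0.27, limma adjusted p = 0.0667). The lowest knockout line, replicate 1, was still above the highest wild-type line, but the call ended when MIDEAS-/- replicate 2 or 3, or wild-type replicate 1 or 2, was left out (limma adjusted p up to 0.243) and without the mean trend in the spread (limma adjusted p = 0.134). Exons of Adamts7 share 122 bp with Tbc1d2b on the other strand. Adamts12, its closest relative, overlapped between genotypes (log2 fold change -0.56, SE 0.36, limma adjusted p = 0.483). Adamtsl1, a matrix protein without a protease domain, had 1784, 2360.5 and 1768 in MIDEAS-/- lines, against 837, 1140.4 and 1367 in MIDEAS+/+ lines, the smallest change among the genes that rose (log2 fold change 0.84, SE 0.22, limma adjusted p = 0.0726). Adamtsl1 lost its call when any of the MIDEAS-/- replicates or MIDEAS+/+ replicate 1 or 2 was left out (limma adjusted p up to 0.207) and without the mean trend (limma adjusted p = 0.144). The other Adamtsl genes were not called. Adamtsl3, which was higher in every knockout line than in any wild-type line, had a log2 fold change of 0.50, and Adamtsl2, Adamtsl4 and Adamtsl5 had overlapping groups and 0.78, 0.076 and -0.26.

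Adamts6 stood on the other side. This enzyme, needed for heart development in mice, had 508, 847 and 864 normalized counts in MIDEAS-/- lines, against 1106, 1445 and 1055 in MIDEAS+/+ lines. All 3 knockout lines were below all 3 wild-type lines, but the log2 fold change of -0.73 (SE 0.22, limma adjusted p = 0.115) did not pass. Adamts10, its closest relative and a fibrillin-binding enzyme, had overlapping groups (log2 fold change -0.29, SE 0.18, limma adjusted p = 0.481).

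MIDEAS+/+ replicate 3 was the highest of the wild-type lines in 9 of the 9 genes that rose and MIDEAS+/+ replicate 2 the lowest in 6, while MIDEAS-/- replicate 1 was the lowest of the knockout lines in 6. With single libraries left out, the number of members called in MIDEAS-/- MEFs was 9, 4 and 6 when MIDEAS-/- replicate 1, 2 or 3 was the one omitted, and 7, 5 and 10 when it was replicate 1, 2 or 3 of the MIDEAS+/+ lines. Adamts15, Adamts16, Adamts17 and Adamts19 were called in each of these. The share of all genes called in these fits is not given. A general loss of calls can therefore not be told from one among these members.

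**Figure D3:**
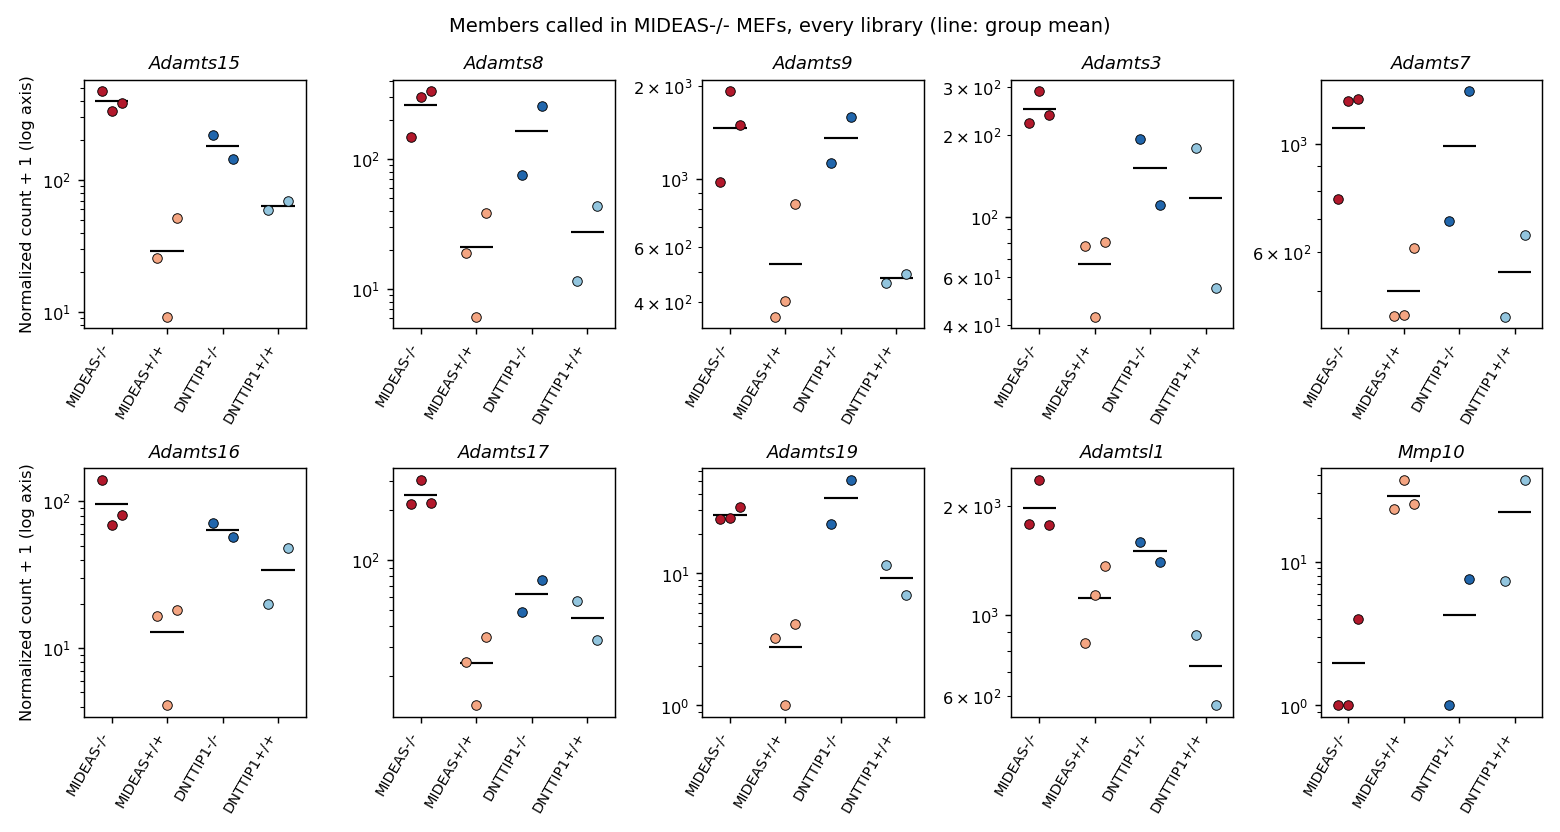
Normalized counts plus 1 on a log axis for the 10 genes called in MIDEAS-/- MEFs, with a point for each line and a bar at the group mean. In MIDEAS-/- the points of the 9 genes that rose lie above all MIDEAS+/+ points and those of Mmp10 lie below them. Adamts7, Adamts8, Adamts9, Adamts15, Adamts16, Adamts19 and Adamtsl1 show a like order of DNTTIP1-/- over DNTTIP1+/+, and Adamts3 and Adamts17 overlap there.

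Mmp10, a stromelysin that cuts proteoglycans, laminin and other Mmp precursors, was the only Mmp gene called. It had 0, 0 and 2.97 normalized counts in MIDEAS-/- lines, against 22.3, 35.8 and 24.3 in MIDEAS+/+ lines. Each wild-type line held it and a single knockout line did, with 3 reads in all 3 MIDEAS-/- lines and 86 in the MIDEAS+/+ lines. Taken as 2 and 44 fragments, the ratio was 0.0412 with an exact 95% interval of 0.00483 to 0.158 for counting error only. The fitted log2 fold change of -4.14 (SE 0.95, limma adjusted p = 0.0499) depends on the pseudocount of 1 and is not a bound. The call ended when MIDEAS-/- replicate 1 or 2, or any 1 of the wild-type lines, was left out (limma adjusted p up to 0.196), and a filter at a mean of 50 leaves the gene untested.

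Mmp10 (ENSMUSG00000047562; 7502352 to 7510240, plus strand) lies in a cluster of 10 Mmp genes on chromosome 9, whose promoters are described above. Of the 10, 4 were tested, and only Mmp10 was called. Mmp13, a collagenase of bone and cartilage, had 102, 23.9 and 73.2 normalized counts in MIDEAS-/- lines, against 145, 101 and 100.1 in MIDEAS+/+ lines (log2 fold change -0.99, SE 0.50, limma adjusted p = 0.359). A single knockout line reached the wild-type range. Mmp3, the stromelysin next of kin to Mmp10, had 160.1, 51.9 and 82.1 in MIDEAS-/- lines, against 219.5, 33.7 and 140.0 in MIDEAS+/+ lines (log2 fold change -0.20, SE 0.63, limma adjusted p = 0.913). Mmp12, an elastase of macrophages, had 33.0, 7.31 and 43.5, against 34.5, 24.5 and 12.5 (log2 fold change 0.013, SE 0.69, limma adjusted p = 0.996). Both overlapped widely. Exons of Mmp12 share 157 bp with Mmp1b on the other strand.

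**Figure D4:**
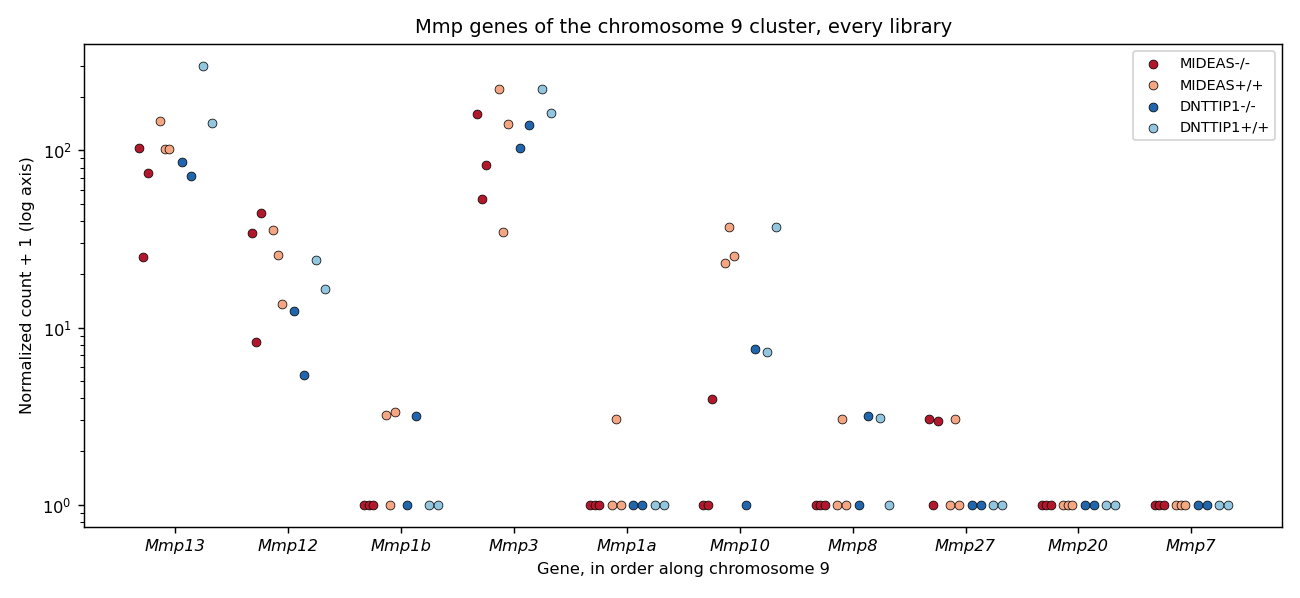
Normalized counts plus 1 on a log axis for the 10 Mmp genes of the chromosome 9 cluster in their order along it, with a point for each line. Mmp13, Mmp12, Mmp3 and Mmp10 have reads in most lines, the other genes are at or near 0, and Mmp10 is the gene whose MIDEAS-/- points all lie below its MIDEAS+/+ points.

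Outside the cluster, no Mmp gene passed. Mmp2 had 4660.1, 3414 and 4074 normalized counts in MIDEAS-/- lines, against 4652, 3859.7 and 3444 in MIDEAS+/+ lines, a log2 fold change of 0.023 (SE 0.15, limma adjusted p = 0.963) with a 95% interval of -0.30 to 0.35. Mmp14 had 4308, 3128 and 4347, against 4535, 4210.2 and 3533, a log2 fold change of -0.068 (SE 0.15, limma adjusted p = 0.874) with an interval of -0.40 to 0.26. The intervals of these abundant enzymes leave out the changes of the Adamts genes that rose. Mmp16, a membrane-bound relative of Mmp14, had 792, 864 and 617 in MIDEAS-/- lines, against 440.2, 529 and 636 in MIDEAS+/+ lines (log2 fold change 0.50, SE 0.17, limma adjusted p = 0.166), and a single knockout line fell in the wild-type range. Mmp28, the epilysin of skin, had 318, 295 and 189, against 105, 129.8 and 173 (log2 fold change 0.97, SE 0.45, limma adjusted p = 0.322), with no overlap. Mmp15, another membrane-bound enzyme, had 151, 385 and 309.6, against 86.9, 157 and 265 (log2 fold change 0.77, SE 0.46, limma adjusted p = 0.459), with overlap. The other tested Mmp genes (Mmp9, Mmp11, Mmp17, Mmp19 and Mmp23) had log2 fold changes from -1.06 to 0.33 and overlapping groups.

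None of the 4 inhibitor genes passed the test. Timp1, which lies on the X chromosome, had 1111, 720.1 and 904 normalized counts in MIDEAS-/- lines, against 1296, 1252 and 979 in MIDEAS+/+ lines, a log2 fold change of -0.38 (SE 0.17, limma adjusted p = 0.284). The groups overlapped. Xist, the transcript of the inactive X, was present in the 3 MIDEAS-/- lines and in 2 of the 3 MIDEAS+/+ lines, and its part in the Timp1 value was not tested. Timp2 had a log2 fold change of -0.12 (SE 0.16, limma adjusted p = 0.773) and Timp3, the inhibitor of many Adamts enzymes, one of 0.056 (SE 0.13, limma adjusted p = 0.885), with intervals of -0.47 to 0.23 and -0.24 to 0.35. Timp4 had 31.0, 5.32 and 0 normalized counts in MIDEAS-/- lines and 0 in each MIDEAS+/+ line. Its 38 reads, 30 of them in replicate 1, were taken as 19 fragments against 0. The exact 95% lower limit of this ratio is 4.23 for counting error only. However, replicate 3 was at 0 and the test did not pass (limma adjusted p = 0.292). Exons of Timp4 share 90 bp with Syn2 and those of Timp3 1733 bp with Syn3, both on the other strand, so reads of these overlaps cannot be assigned.

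The second comparison asks the same of the loss of DNTTIP1, with 2 lines a genotype. In both genotypes Xist was at 0 in replicate 1 and present in replicate 2. With limma, 0 of the 41 tested genes were called, and 0.0308% of all genes were. edgeR called 0 members (0.0308% of all genes), whereas DESeq2 called 2 (1.27% of all genes), Adamts9 and Adamtsl1. By unadjusted p under 0.05, 8 members were higher and 2 lower, against 4.38% and 2.09% of all genes. The lines did not overlap in 12 members as higher, against 20.1% of all genes, and in 8 as lower, against 18.9%. The median log2 fold change was 0.47 for Adamts, 0.17 for Adamtsl, -0.26 for Mmp and 0.22 for Timp genes, against 0.00062 over all genes.

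The smallest p belonged to Adamtsl1, with 1594 and 1405 normalized counts in DNTTIP1-/- lines, against 882 and 564 in DNTTIP1+/+ lines (log2 fold change 1.08, SE 0.26, limma adjusted p = 0.339). Adamts9 followed, with 1123 and 1582 in DNTTIP1-/- lines, against 459.8 and 490.3 in DNTTIP1+/+ lines (log2 fold change 1.49, SE 0.40, limma adjusted p = 0.410). Neither gene overlapped between the genotypes. Mmp16 had 703 and 795, against 442 and 495 (log2 fold change 0.68, SE 0.21, limma adjusted p = 0.526). Adamts8 had 74.2 and 257 in DNTTIP1-/- lines, against 10.5 and 42.9 in DNTTIP1+/+ lines (log2 fold change 2.63, SE 0.93, limma adjusted p = 0.621). Both were apart as well, Adamts8 with a wide spread within each genotype.

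Adamts19 had 22.7 and 50.3 normalized counts in DNTTIP1-/- lines, against 10.5 and 5.85 in DNTTIP1+/+ lines (log2 fold change 1.97, SE 0.77, limma adjusted p = 0.697). Adamts7 had 693 and 1283, against 441 and 649 (log2 fold change 0.82, SE 0.34, limma adjusted p = 0.730). Adamts1 had 5311 and 4442, against 4119.9 and 3109.6 (log2 fold change 0.44, SE 0.18, limma adjusted p = 0.743). In these 3 genes the knockout lines were both above the wild-type lines, by little in Adamts7 and Adamts1. Adamts6 had 468 and 494 in DNTTIP1-/- lines, against 649 and 848 in DNTTIP1+/+ lines, both below (log2 fold change -0.62, SE 0.27, limma adjusted p = 0.743). The neighbours Adamts15 and Adamts8 were on the same side here too, as Adamts15 had 219 and 143, against 58.0 and 68.2 (log2 fold change 1.48, SE 0.64, limma adjusted p = 0.747). In the Mmp cluster, Mmp13 had 84.5 and 71.1, against 298 and 142 (log2 fold change -1.40, SE 0.61, limma adjusted p = 0.748), and Mmp10 0 and 6.56, against 6.33 and 36.1 (log2 fold change -2.58, SE 1.16, limma adjusted p = 0.768). The Mmp13 lines were apart and the Mmp10 lines overlapped. Among the inhibitors, the log2 fold changes were -0.16 for Timp1, 0.15 for Timp2, 0.30 for Timp3 and 0.94 for Timp4. Of these values, several moved by over 1.5 times with 1 DNTTIP1 line left out. The log2 fold change then lay between -4.04 and -1.12 for Mmp10 (without DNTTIP1-/- replicate 2 and 1), -1.93 and -0.87 for Mmp13, 1.67 and 3.59 for Adamts8 (without DNTTIP1+/+ replicate 1 and 2), 0.37 and 1.26 for Adamts7 (without DNTTIP1-/- replicate 2 and 1) and 0.24 and 0.64 for Adamts1. For Timp2 it lay between 0.040 and 0.25, for Timp3 between 0.17 and 0.43 and for Timp4 between -0.048 and 1.92.

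The 9 genes that rose in MIDEAS-/- MEFs all had a log2 fold change above 0 in DNTTIP1-/- MEFs, with a median of 1.08, and 7 of the 9 did not overlap. Of the 545 genes that rose in MIDEAS-/- MEFs, 526 were above 0 in DNTTIP1-/- MEFs (96.5%), and 412 did not overlap as higher (75.6%), so both shares in this family are near those of all such genes. Of the 41 tested members, 32 had the same sign in both knockouts, and the share over all genes was not computed.

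The difference between the 2 knockout effects was tested itself. With limma 0 members were called, as with edgeR, and 0.0% of all genes by either, whereas DESeq2 called 1 member, Adamts17 (adjusted p = 0.0138 from DESeq2), and 0.074% of all genes. By unadjusted p under 0.05 there were 3 members, against 2.79% of all genes. Adamts17 had 47.4 and 75.5 normalized counts in DNTTIP1-/- lines, against 55.9 and 32.2 in DNTTIP1+/+ lines, an overlap that contrasts with the full separation in the MIDEAS lines. The difference between its log2 fold changes was 2.97 (SE 0.64, limma adjusted p = 0.990). For Adamts15 the difference was 2.62 (SE 0.83) and for Adamts4 it was 0.42 (SE 0.17), both with an adjusted p of 0.990 from limma. The wild-type means of Adamts15 and Adamts17 were lower in MIDEAS+/+ (27.8 and 23.1 normalized counts) than in DNTTIP1+/+ lines (63.1 and 44.0). For Adamts17 these lines overlapped, with 33.6 in MIDEAS+/+ replicate 3 and 32.2 in DNTTIP1+/+ replicate 2. The knockout means were higher in MIDEAS-/- (398 and 248) than in DNTTIP1-/- lines (181 and 61.4). Both gaps enter these differences, and the wild-type lines of the 2 families were not tested against each other.

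Genes that act on these proteases or are cut by them were examined as lists, and none of their members was called in DNTTIP1-/- MEFs. Of 14 activators, receptors and inhibitors of the proteases, the proprotein convertase Pcsk5 rose in MIDEAS-/- MEFs (log2 fold change 1.23, limma adjusted p = 0.0236) and Cd44 and Cav1 fell (log2 fold changes -0.65 and -0.48). Of 10 membrane-bound ADAM genes, relatives of Adamts without the thrombospondin repeats, Adam22 and Adam23 rose (1.57 and 0.73), both of which lack protease activity.

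Among 15 AP-1, Ets and Runx transcription factor genes, of which the AP-1 and Runx sequences were searched in the promoters, 0 rose and 3 fell in MIDEAS-/- MEFs. These were the AP-1 members Fosl1 (log2 fold change -1.23, limma adjusted p = 0.0646) and Fosl2 (-0.46, limma adjusted p = 0.0739) and Runx3 (-1.85, limma adjusted p = 0.0926). Of 13 tested inflammatory inducers and receptors, which raise Mmp genes in many cells, Il1r1 rose (1.01) and Ptgs2, Tnfrsf1b and Il1rap fell (-2.44, -0.52 and -0.57). Of 14 tested genes for procollagen processing and crosslinking, 0 rose and Loxl4 fell (-1.77), and of 21 tested matrix proteins Nid2 and Eln rose (0.78 and 0.86) and Ltbp1 fell (-0.41). The medians of these lists lay between -0.30 and -0.034, against -0.024 over all genes tested.

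Several Adamts and Mmp genes are made by other cells than fibroblasts, so markers of such cells are given beside the results, and in bulk RNA fewer cells of a type and less RNA per cell cannot be told apart. Of 12 tested chondrocyte and osteoblast markers 3 rose in MIDEAS-/- MEFs (Alpl, Sox9 and Col9a1), with list sums of 8745 to 9999 normalized counts in MIDEAS-/- and 7400 to 8791 in MIDEAS+/+ lines. Of 8 smooth muscle markers 2 fell (Myh11 and Des), with sums of 7917 to 11923 in MIDEAS-/- and 12556 to 18445 in MIDEAS+/+ lines. The smooth muscle sums did not overlap and the cartilage and bone sums did. Of 8 tested keratinocyte and epithelial markers 3 fell (Pkp1, Sfn and Krt18), with sums of 443 to 875 in MIDEAS-/- and 997 to 1880 in MIDEAS+/+ lines. Of 5 tested adipocyte markers Lpl rose, with sums of 1763 to 3047 in MIDEAS-/- and 816 to 955 in MIDEAS+/+ lines. Of these 5 markers, 2 had a log2 fold change above 0 and 3 below (median -0.15). Of 6 tested endothelial markers Tek rose, with sums of 1088 to 1328 in MIDEAS-/- and 780 to 981 in MIDEAS+/+ lines. Of these 6 markers, 3 lay above 0 and 3 below (median -0.091). The keratinocyte and epithelial, adipocyte and endothelial sums were apart too. Of 11 tested macrophage markers 0 were called, but all 11 had a log2 fold change below 0 (median -0.61). Their sums were 714 to 1602 in MIDEAS-/- and 820 to 4673 in MIDEAS+/+ lines. Of 7 tested skeletal muscle markers Acta1 fell, whereas the other 6 had a log2 fold change above 0 (median of all 7, 0.86). The skeletal muscle sums were 341 to 962 and 615 to 1734. Of the 10 fibroblast markers Lum and Dcn rose, while 4 had a log2 fold change above 0 and 6 below (median -0.058). In the DNTTIP1 lines 0 of these markers were called, and 10 of 11 tested macrophage markers had a log2 fold change below 0 (median -0.76). The smooth muscle sums were 9673 to 12056 in DNTTIP1-/- and 13176 to 14497 in DNTTIP1+/+ lines, the cartilage and bone sums 11462 to 13820 and 7984 to 10483, the adipocyte sums 1852 to 2635 and 789.6 to 1794 and the endothelial sums 924 to 1463 and 724 to 873, each without overlap. The keratinocyte and epithelial sums were 1057 to 1546 in DNTTIP1-/- and 1205 to 2270.3 in DNTTIP1+/+ lines, the macrophage sums 278 to 747 and 477 to 1374 and the skeletal muscle sums 282 to 2374 and 661 to 2277, with overlap. No marker was at 0 in every library, and the part of these lists in the protease results was not tested.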

How the data were processed

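RNA of 10 MEF lines was sequenced. Per the labels and the study's methods, the authors trimmed reads with Trim Galore 0.4.5 and cutadapt 1.11, aligned them to mm10 with STAR 2.5.2b, removed duplicates with Picard, sorted with SAMtools 1.3.2 and used DESeq2. Duplicate removal lowers the values of abundant genes most. How reads were assigned to genes, and with which strand setting, is not given in the sources used here. Each deposited signal is the normalized count of a gene, for which the authors scaled the reads of each library by a size factor computed over the 10 libraries together. Dividing each value by the smallest one of its library gave whole numbers throughout (100% in each library, tolerance 0.01), which are the recovered reads. Deposited tables of the authors' own comparisons (fold changes and p-values) were not used. Of the 51 members, 40 had a symbol in the table and 11 were matched by Ensembl ID through a reference table of names.

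The test was limma 3.58.1 (R 4.3.3, trend and robust empirical Bayes) on log2(value + 1), fitted to 16227 genes whose mean was 10 or more, with the 10 libraries in 4 groups. A gene was called where its p, adjusted over all these genes after Benjamini and Hochberg, was under 0.1. Fold changes are on that scale, which understates those of low genes. The fit was run on simulated data with libraries drawn independently, so lines that deviate together were not covered. The outcome is not given here. The members, lists and tests were chosen with earlier results of these data known. Named with values are members called, the next 12 by p in the MIDEAS and the first 8 in the DNTTIP1 comparison, the 5 highest per kb and all Timp genes, and up to 4 called genes of each related list, of which 1 list is not reported here. A few further members were named after their values were seen, to complete a class or a cluster. The alternatives changed the pseudocount, the filter, the scaling or the threshold, fitted each family alone, used the replicate number as a block, dropped the trend, used edgeR 4.0.16 or DESeq2 1.42.0 on the recovered reads, or left out 1 library. Exon lengths and overlaps come from the mm10 gene annotation. Figures were drawn with matplotlib 3.10.9.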

Additional observations from a re-analysis of the deposited data

How the results depend on the processing

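The number of members called in MIDEAS-/- MEFs was 10, lay between 4 and 11 with 1 library left out, was 16 with the replicate number as a block (13 higher and 3 lower, with 12.5% of all genes called) and lay between 8 and 15 under the other alternatives. In DNTTIP1-/- MEFs it was 0 (0.0308% of all genes called), as with any MIDEAS library left out. It was 1 with the block (Adamtsl1, limma adjusted p = 0.0964), which called 0.505% of all genes, and 2 with DESeq2, which called 1.27%. For the difference between the knockouts DESeq2 gave 1 and the other alternatives, including every library left out, 0. For MIDEAS-/- MEFs the share of all genes called is given only for the main fit, the block, edgeR and DESeq2. The other member counts stand without it. The labels do not say what a replicate number stands for. Deviations of same-numbered MIDEAS lines correlated at 0.21, -0.11 and -0.049, and those of the DNTTIP1 lines at 0.66. With 2 lines a group the deviations mirror each other, so the 2 DNTTIP1 pairs give 1 and the same value. In the DNTTIP1 family replicate 1 of both genotypes had Xist at 0 and Ddx3y, a gene of the Y chromosome, at 1710.4 and 1486 normalized counts, and replicate 2 had Ddx3y at 0 and Xist at 5376 and 4483, so same-numbered DNTTIP1 lines share sex. With 2 pairs and no label for the number, the block was kept as an alternative. Of 1199 single-gene values under alternatives, 1136 kept their direction and side of the threshold, 22 passed and 27 fell short of it, and 14 changed sign, the cause of which was not tested. The 14 were all log2 fold changes with 1 library left out. In the MIDEAS comparison the range over libraries left out was -0.084 to 0.14 for Mmp2 (below 0 without MIDEAS-/- replicate 1 or MIDEAS+/+ replicate 3), -0.17 to 0.088 for Mmp14 (above 0 without MIDEAS-/- replicate 2 or MIDEAS+/+ replicate 1), -0.24 to 0.013 for Timp2 (above 0 without MIDEAS-/- replicate 2) and -0.050 to 0.13 for Timp3 (below 0 without MIDEAS+/+ replicate 1). In the DNTTIP1 comparison it was -0.042 to 0.069 for Mmp2, -0.33 to 1.26 for Mmp28, -0.25 to 0.58 for Adamts2, -0.30 to 1.42 for Adamts3, -1.41 to 0.22 for Adamts18 and -0.048 to 1.92 for Timp4. The signs changed there without DNTTIP1+/+ replicate 2 (Mmp2, Mmp28, Adamts2, Adamts3, Adamts18), DNTTIP1-/- replicate 1 (Mmp28, Timp4) or DNTTIP1-/- replicate 2 (Mmp2). Where only 1 line of a DNTTIP1 genotype remained, the fit took its spread from the rest. Fits of each family alone give no test of the difference, and TMM, edgeR and DESeq2 scaling moved the median of all genes by at most 0.028 on the log2 scale. Depth limits Mmp10, Mmp12, Adamts18, Adamts19 and Timp4 most.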
